A study of Mus musculus with 6 samples.

Results

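The genes described here encode the V-ATPase, the proton pump that acidifies lysosomes, and the proteins that bring the kinase complex mTORC1 to the lysosome surface. Members were the rows of the count table named as V-ATPase subunits or accessory proteins, Ragulator subunits (Lamtor1 to Lamtor5), Rag GTPases (Rraga to Rragd), folliculin and its partners (Flcn, Fnip1 and Fnip2), Slc38a9, the mTORC1 core (Mtor, Rptor and Mlst8), Rheb, Tsc1, Tsc2 and the GATOR1 genes (Depdc5, Nprl2 and Nprl3), with at least 20 counts over all libraries. The rule found 42 members among 15458 rows, 20 of the V-ATPase and 22 of the mTORC1 machinery, and 1 further row, Atp6v1b1, fell under the minimum with 7 counts. Messenger RNA was measured in Kupffer cells, the macrophages that reside in the liver, sorted from wild type C57BL/6 mice. In the KC_Epo group (3 libraries) the mice carried Hepa1-6_EpoOE tumours, a mouse hepatoma line that overexpressed erythropoietin. In the KC_EV group (3 libraries) they carried Hepa1-6_EV tumours with an empty vector. All mice bore tumours and were taken on day 18 after implantation, so no tumour-free liver enters the comparison. Neither the sex or age of the mice nor any pooling of animals is stated in the labels. The comparison asks how expression in Kupffer cells differed when the tumour made erythropoietin.

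The V-ATPase has a cytosolic V1 sector, which splits ATP, and a membrane V0 sector, through which protons enter the lysosome. On the same membrane the Ragulator complex anchors a pair of Rag GTPases, RagA or RagB with RagC or RagD, and amino acids set the nucleotide state in which the pair recruits mTORC1, which Rheb then activates. Folliculin with its partners acts on RagC and RagD, GATOR1 acts on RagA and RagB, and the TSC complex acts on Rheb; GATOR1 and TSC switch mTORC1 off. The transcription factors TFEB, TFE3 and MITF are held in the cytosol by mTORC1 in nutrient-rich cells, and they bind the CLEAR element of many lysosomal genes. In Kupffer cells the lysosome digests aged red cells and other particles taken up from the blood.

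Library totals were between 23201076 and 33280754 counts. Levels are CPM, counts relative to the library total, scaled with TMM factors, which were 0.934 to 0.959 in KC_Epo and 1.05 to 1.07 in KC_EV, so the composition of the libraries differed between the groups. As a check of the labels, Epo had 29, 44 and 21 counts in KC_Epo 1 to 3 and 0 counts in every KC_EV library. Of 9 Kupffer cell markers 7 were higher, 1 was lower (Adgre1) and 1 was not called, and their summed level was 39620 to 42460 CPM in KC_Epo and 24660 to 26990 CPM in KC_EV. Markers of other cell types differed too: the summed level of 10 hepatocyte markers was 5756 to 19710 CPM in KC_Epo and 2490 to 3072 CPM in KC_EV (8 higher, 0 lower), and that of 7 red cell markers was 606.1 to 1108 CPM in KC_Epo and 33.3 to 43.1 CPM in KC_EV (7 higher). The sum of 9 sinusoidal endothelial markers was 2198 to 2799 CPM in KC_Epo and 4127 to 4798 CPM in KC_EV (6 lower, 1 higher). Of 6 dendritic cell markers 4 were lower and 0 higher, with a sum of 87.6 to 99.4 CPM in KC_Epo and 136 to 143 CPM in KC_EV. Xcr1 had the largest difference of them, at -3.01 ± 0.22. The 2 not called were Siglech, at -0.51 ± 0.31, and Clec9a, which was level at 0.02 ± 0.07. Clec9a made up the largest part of the sum, with 69.0 ± 2.23 CPM in KC_Epo and 67.8 ± 1.46 CPM in KC_EV (SD, n = 3 each). Of the 4 neutrophil markers tested 1 was lower (Mmp9) and 0 higher. Mmp9 had 3.57, 4.86 and 4.24 CPM in KC_Epo 1 to 3 and 10.6, 16.3 and 16.4 CPM in KC_EV 1 to 3. S100a8, not called, was lowest in KC_EV 1, as were S100a9 and Camp. S100a8 had 4.89, 4.67 and 5.33 CPM in KC_Epo 1 to 3 and 0.63, 21.3 and 40.5 CPM in KC_EV 1 to 3. Of 5 monocyte markers 1 was higher (Plac8) and 2 lower (Ccr2 and F13a1). Of 4 B and plasma cell markers 1 was higher (Jchain) and 0 lower, and of 5 T and NK markers 0 were called. None of these markers was at 0 in all libraries. Their part in the results was not tested. In sorted bulk RNA fewer cells of a type and less RNA per cell cannot be told apart.

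More of the V-ATPase genes than of all genes tested were higher in KC_Epo, while in the mTORC1 machinery Rragc, Flcn and Fnip2 were higher. By the edgeR quasi-likelihood test with an adjusted p of 0.05, 7 of 19 tested V-ATPase members were higher (Atp6v1b2, Atp6v1g1, Atp6v0a1, Atp6v0b, Atp6v0c, Atp6v0d1 and Atp6ap2) and 1 was lower (Atp6v0d2). Of 21 tested mTORC1 members 3 were higher (Rragc, Flcn and Fnip2) and 0 were lower. At an unadjusted p under 0.05 no tested mTORC1 member was lower by edgeR, and with DESeq2 the number lower at the adjusted threshold was also 0. Over all 13120 genes tested, 32.3% were called, 16.9% as higher and 15.4% as lower. The share called higher was therefore 36.8% among V-ATPase members and 14.3% among mTORC1 members, the second near the background. Members were chosen with earlier results of these data known, so these shares are a description and not independent support. The median log2 fold change was 0.19 over the V-ATPase members and 0.12 over the mTORC1 members, against -0.0045 over all genes tested. With library sizes in place of TMM factors the median of all genes was -0.16, and the medians were 0.03 for the V-ATPase and -0.04, on the other side of 0, for the mTORC1 members. The KC_Epo libraries all lay above the KC_EV libraries for 12 V-ATPase and 9 mTORC1 members, where 24.1% of all genes did so, and all below for 2 V-ATPase members and 0 mTORC1 members, where 24.2% did. The number of V-ATPase members higher was 12 without KC_Epo 1, 4 without KC_Epo 3, and 3 without KC_EV 2 or without KC_EV 3. Over all genes, 2410 of 13383 were higher without KC_Epo 1 and 1477 of 13435 without KC_Epo 3. That number was 1554 of 13324 without KC_EV 2 and 1617 of 13294 without KC_EV 3. Without KC_EV 2 or KC_EV 3 the V-ATPase count was thus nearer to the share of all genes than with all libraries. The number of mTORC1 members higher was 5 without KC_EV 1, where 1923 of 13328 genes were higher.

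**Figure D1:**
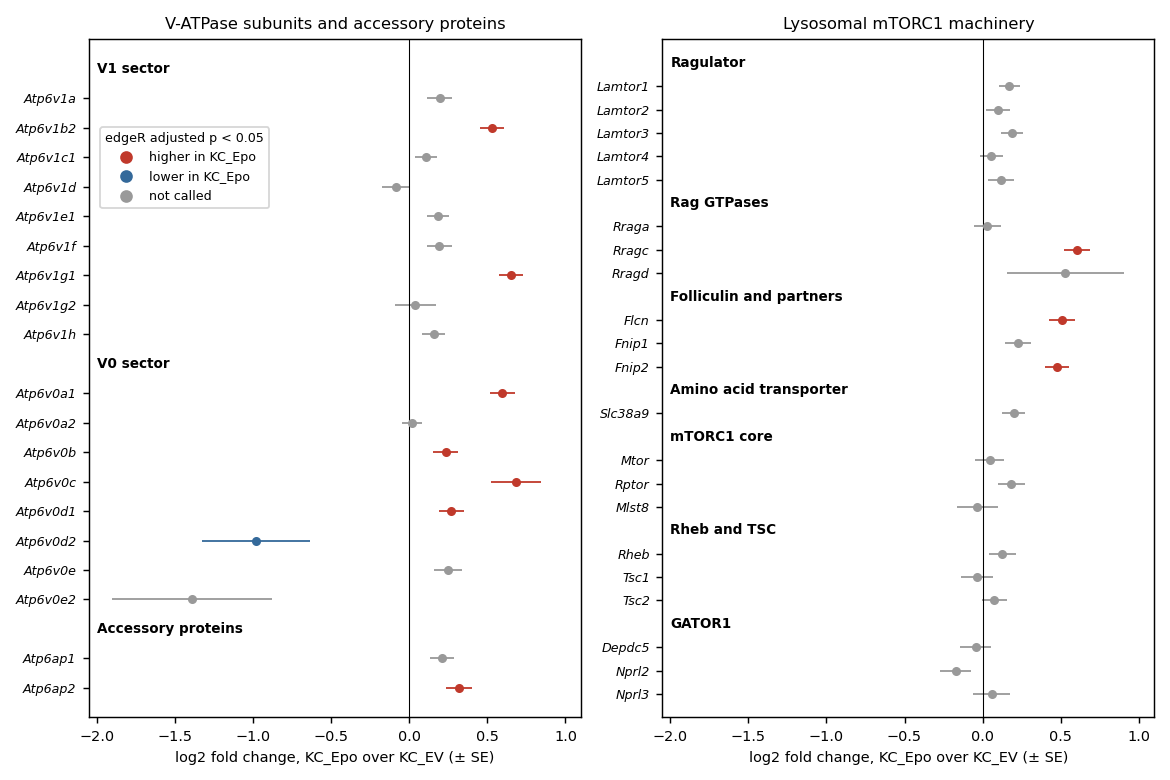
Log2 fold change of KC_Epo over KC_EV (x axis, ± SE, 3 libraries a group) for the 40 tested members, grouped by role from top to bottom. Points past an adjusted p of 0.05 are coloured: 10 lie to the right of 0 and 1, Atp6v0d2, to the left. No point of the mTORC1 core, Rheb and TSC or GATOR1 is coloured, where 32.3% of all genes tested were called.

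In the V1 sector 2 of 9 members rose, a share of 22.2% that is near the 16.9% over all genes tested. Atp6v1b2 encodes the B subunit found in most tissues, which forms the ATP-splitting ring together with the catalytic A subunit. It had 509, 594 and 552 CPM in KC_Epo 1 to 3, against 385, 386 and 375 CPM in KC_EV 1 to 3. The lowest KC_Epo library stood far above the highest KC_EV library, and the log2 fold change was 0.53 ± 0.08 (SE, quasi-likelihood edgeR adjusted p = 0.000273), a 1.45-fold difference.

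Atp6v1g1 encodes a subunit of the peripheral stalks that hold the ring still. It had 318, 271 and 286 CPM in KC_Epo 1 to 3, against 183, 186 and 187 CPM in KC_EV 1 to 3. The KC_EV libraries were almost level, KC_Epo 1 was the highest, and the groups did not overlap. Its log2 fold change of 0.65 ± 0.08 (SE) had the smallest adjusted p of all members, 6.16e-05. The call was kept for both Atp6v1b2 and Atp6v1g1 in each of the 16 alternative settings, where the log2 fold changes were 0.37 to 0.59 and 0.49 to 0.71.

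The other V1 members were not called. Atp6v1a, the catalytic subunit, stood at 129 ± 10.1 CPM in KC_Epo and 113 ± 7.75 CPM in KC_EV (SD, n = 3 each; log2 fold change 0.19 ± 0.08 SE, edgeR adjusted p = 0.082). Atp6v1e1, the other peripheral stalk subunit, and Atp6v1f, a part of the rotor, had log2 fold changes of 0.19 ± 0.07 and 0.19 ± 0.08. All 3 were called without KC_Epo 1 (0.24 for Atp6v1a, 0.23 for Atp6v1e1 and 0.26 for Atp6v1f), and Atp6v1a also without KC_EV 1 (0.25). Atp6v1h, a regulatory subunit, was at 0.16 ± 0.07 and was called without KC_EV 1 at 0.22. Atp6v1c1, which joins the stalks to the membrane sector, was at 0.11 ± 0.07, and Atp6v1d, the central shaft, at -0.09 ± 0.08 with groups that overlapped. Atp6v1g2, a form of the G subunit best known from brain, was near level at 0.04 ± 0.13, with 12.1 ± 0.80 CPM in KC_Epo and 11.8 ± 0.91 CPM in KC_EV. A difference in fold change between Atp6v1g1 and Atp6v1g2 was not tested.

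In the V0 sector 4 of 8 tested members rose and 1 fell. These are 50% and 12.5%, against 16.9% and 15.4% of all genes tested, the second near the background. Of the 4 that rose only Atp6v0a1 kept its call in all 16 alternative settings. Atp6v0a1 encodes a form of the large a subunit, which lines the proton path and directs the pump to its membrane. It had 155, 173 and 171 CPM in KC_Epo 1 to 3, against 99.1, 117 and 114 CPM in KC_EV 1 to 3. The groups were well apart, with a change of 0.60 ± 0.08 on the log2 scale (SE, edgeR adjusted p = 0.000216), and the call was kept in all 16 alternative settings at 0.44 to 0.65. Atp6v0a2, the form best known from the Golgi, had 81.7, 80.2 and 78.4 CPM in KC_Epo 1 to 3 and 79.1, 77.5 and 80.9 CPM in KC_EV 1 to 3. These overlapped fully, and the log2 fold change was 0.02 ± 0.07.

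Atp6v0c encodes the main proteolipid of the proton-carrying ring. It had 61.0, 97.5 and 82.9 CPM in KC_Epo 1 to 3, against 49.3, 52.3 and 48.7 CPM in KC_EV 1 to 3. KC_Epo 1 lay nearest to the KC_EV libraries, and the spread in KC_Epo was wide. The log2 fold change was 0.68 ± 0.16 (SE, quasi-likelihood edgeR adjusted p = 0.0151), and without KC_EV 1, KC_EV 2 or KC_EV 3 it was 0.67, 0.72 and 0.67 with the call lost. Processed pseudogenes of Atp6v0c are annotated in the mouse genome, so its reads may be shared and its value is uncertain.

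Atp6v0b, the second proteolipid of the ring, had 532, 526 and 509 CPM in KC_Epo 1 to 3, against 398, 471 and 465 CPM in KC_EV 1 to 3. KC_EV 1 was the low library of its group, and without it the log2 fold change was 0.16, against 0.23 ± 0.08 (SE, edgeR adjusted p = 0.0417) with all libraries. Atp6v0d1, which couples the rotor to the ring, had 142, 172 and 147 CPM in KC_Epo 1 to 3, against 125, 128 and 130 CPM in KC_EV 1 to 3. The groups did not overlap, although KC_Epo 1 was close to KC_EV 3, and the log2 fold change was 0.27 ± 0.08 (SE, quasi-likelihood edgeR adjusted p = 0.0239). Both calls were lost without KC_Epo 2, KC_Epo 3, KC_EV 1, KC_EV 2 or KC_EV 3, at 0.16 to 0.28 for Atp6v0b and 0.19 to 0.31 for Atp6v0d1. They were also lost when upper-quartile factors or plain library sizes replaced TMM, and that of Atp6v0b with a non-robust fit. Atp6v0e, a small membrane subunit, stood at 178 ± 22.4 CPM in KC_Epo and 150 ± 4.84 CPM in KC_EV (SD, n = 3 each). It was not called (log2 fold change 0.24 ± 0.09 SE, edgeR adjusted p = 0.0544) but was called without KC_Epo 1 (0.35), with DESeq2 and with no filter on low counts.

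The member that fell is an isoform of low level. Atp6v0d2, a form of the d subunit known from osteoclasts and some macrophages, had 1.38, 1.48 and 1.69 CPM in KC_Epo 1 to 3, against 2.52, 4.28 and 2.18 CPM in KC_EV 1 to 3. KC_EV 2 was the high library, and the groups did not overlap. Its log2 fold change was -0.98 ± 0.35 (SE, quasi-likelihood edgeR adjusted p = 0.0465), and it was not called without KC_EV 2 (-0.63), without KC_EV 1 (-1.09) or without KC_Epo 1, 2 or 3 (-0.91, -0.96 and -1.05), nor with limma-voom (-0.92). The 4 osteoclast markers analysed went different ways. Acp5 was higher, with 682 ± 99.2 CPM in KC_Epo and 516 ± 32.7 CPM in KC_EV (SD, n = 3 each), and it made up nearly all of the summed level, 581 to 777 CPM in KC_Epo and 487 to 545 CPM in KC_EV. Ctsk was not called, but its KC_Epo libraries all lay below KC_EV, with 1.87 ± 0.56 CPM in KC_Epo and 3.41 ± 0.96 CPM in KC_EV (log2 fold change -0.86 ± 0.33 SE, edgeR adjusted p = 0.0645). Ocstamp overlapped between the groups, and Dcstamp had 0, 2 and 1 counts in KC_Epo 1 to 3 and 13, 20 and 2 counts in KC_EV 1 to 3. Their part in the level of Atp6v0d2 was not tested. Atp6v0e2 had 0.84, 0.26 and 0.82 CPM in KC_Epo 1 to 3, against 2.02, 1.89 and 1.09 CPM in KC_EV 1 to 3, and was not called (log2 fold change -1.39 ± 0.51 SE, edgeR adjusted p = 0.0548). It was called without KC_Epo 1 (-1.66), with DESeq2, with upper-quartile factors or plain library sizes, and with a filter of 1 CPM in 3 libraries.

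Atp6v0a4, a form of the a subunit known from kidney and other epithelia, was too low to be tested, with 1, 2 and 0 counts in KC_Epo 1 to 3 against 18, 13 and 6 counts in KC_EV 1 to 3. The ratio of its scaled counts was 0.0934 (exact 95% interval 0.0184 to 0.295, counting error only), and with no filter on low counts it was called as lower (edgeR adjusted p = 0.043). The epithelial markers Epcam and Krt19 moved the same way, with log2 fold changes of -1.70 ± 0.43 and -1.42 ± 0.35, and their summed level was 1.90 to 4.98 CPM in KC_Epo and 8.51 to 12.2 CPM in KC_EV. The call of Krt19 was lost without KC_Epo 3 (-1.38) and without KC_EV 2 (-1.22). Their part in the level of Atp6v0a4 was not tested. Atp6v1b1, the B subunit of the same epithelia, had 6 counts in KC_Epo and 1 in KC_EV, a ratio of 6.91 with an interval of 0.838 to 318.

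Of the accessory proteins, which help to assemble the V0 sector, Atp6ap2 (the prorenin receptor) rose. It had 256, 233 and 242 CPM in KC_Epo 1 to 3, against 218, 180 and 188 CPM in KC_EV 1 to 3. The groups did not overlap, and the log2 fold change was 0.32 ± 0.08 (SE, quasi-likelihood edgeR adjusted p = 0.0125). The call was lost without KC_Epo 3 (0.33), KC_EV 2 (0.27) or KC_EV 3 (0.29), and with library sizes only (0.16). Atp6ap1 had 401 ± 34.6 CPM in KC_Epo and 346.6 ± 6.2 CPM in KC_EV (SD, n = 3 each) and was not called (0.21 ± 0.08 SE, edgeR adjusted p = 0.0565), but was called without KC_Epo 1 (0.28) and with DESeq2.

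**Figure D2:**
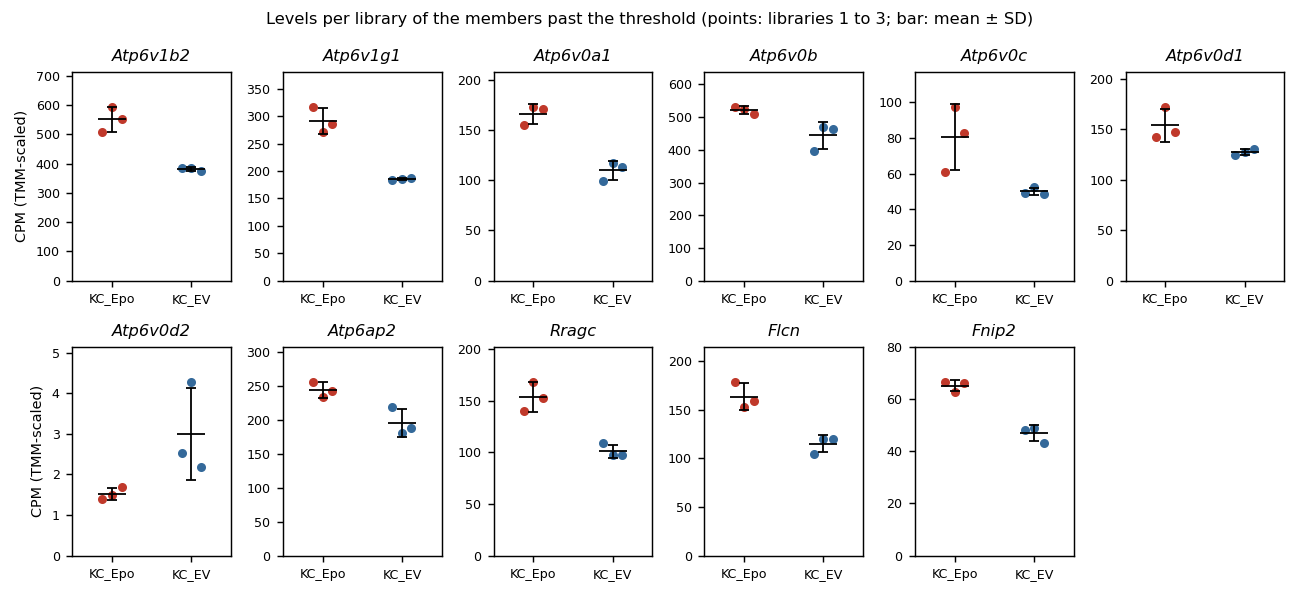
Level in TMM-scaled CPM (y axis from 0) of the 11 members past the threshold, KC_Epo on the left and KC_EV on the right of each panel; points are libraries 1 to 3 and bars the mean ± SD. The groups do not overlap in any panel, and the wide spread of Atp6v0c in KC_Epo and of Atp6v0d2 in KC_EV is visible.

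The subunits differed widely in level, and within the a and d subunits a single form led in both groups. For this, levels were divided by the length of the principal transcript of each gene. In the V0 sector Atp6v0b was highest, with 522 ± 11.7 CPM per kb in KC_Epo and 444 ± 40.7 CPM per kb in KC_EV (SD, n = 3 each). Tcirg1, the a subunit of osteoclasts and lysosomes, is a V-ATPase gene whose symbol the rule does not match, and it stood at 479.7 CPM per kb in KC_Epo and 409.6 in KC_EV. Of the other a subunits, Atp6v0a1 had 41.5 CPM per kb in KC_Epo and 27.4 in KC_EV, and Atp6v0a2 had 14.98 in KC_Epo and 14.81 in KC_EV. The order Tcirg1, Atp6v0a1, Atp6v0a2, Atp6v0a4 was the same in both groups. Atp6v0d1 was at 94.3 CPM per kb in KC_Epo and 78.3 in KC_EV, and Atp6v0d2 at 0.60 in KC_Epo and 1.18 in KC_EV. In the V1 sector Atp6v1f, Atp6v1g1, Atp6v1b2 and Atp6v1e1 led, with 285, 257, 195 and 128 CPM per kb in KC_Epo and 250, 164, 135 and 112 in KC_EV. Atp6v1a, which pairs with Atp6v1b2 in the ring, was at 30.5 CPM per kb in KC_Epo and 26.7 in KC_EV. Transcript lengths come from an annotation of another build than the authors', and a transcript end other than the principal one would change these levels.

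**Figure D3:**
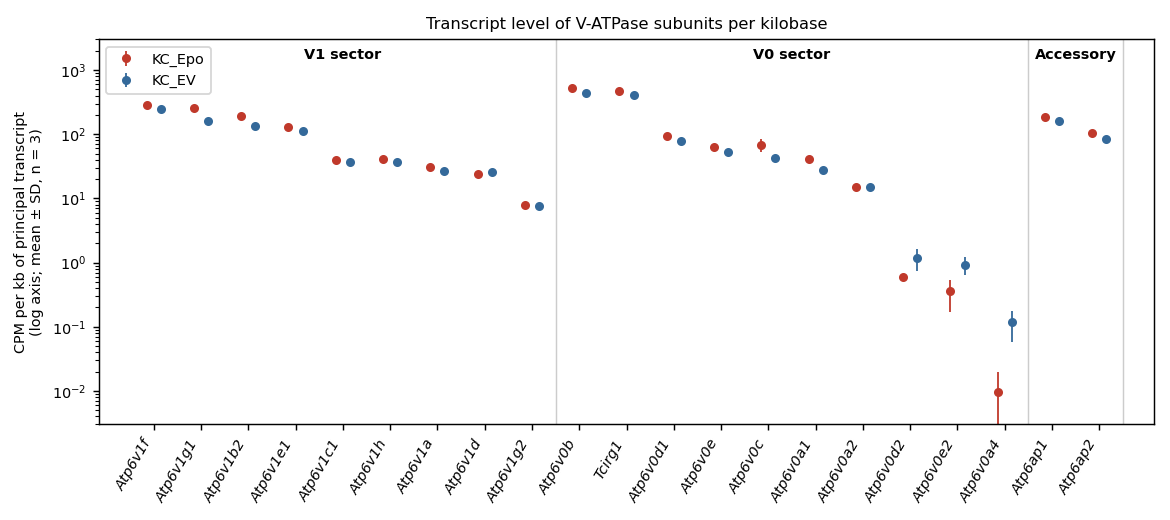
Level per kb of principal transcript (log axis; mean ± SD, 3 libraries a group) of the 20 V-ATPase members and Tcirg1, KC_Epo left of KC_EV for each gene. Atp6v0b and Tcirg1 stand at the top of the V0 sector, and the forms Atp6v0d2, Atp6v0e2 and Atp6v0a4 lie lowest, with KC_Epo below KC_EV in each; the lower bar of Atp6v0a4 in KC_Epo reaches 0 and leaves the axis.

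Tcirg1 itself was not called. It had 1623, 1325 and 1428 CPM in KC_Epo 1 to 3 and 1095, 1312 and 1330 CPM in KC_EV 1 to 3, groups that overlapped by a narrow margin, with a log2 fold difference of 0.23 ± 0.10 (SE, edgeR adjusted p = 0.0959). Without KC_Epo 2 it was called, at 0.30. Rnasek, a further small subunit outside the rule, had 0.81 CPM in KC_Epo and 0.85 CPM in KC_EV and was not called (-0.05 ± 0.48). As 98% of its transcript is shared with another annotated gene, the authors' counting may have left out its reads, and its level is uncertain.

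The ratio of paralogs within a library does not depend on how libraries are scaled. The log2 ratio of Atp6v0a1 to Atp6v0a2 counts was 0.92, 1.11 and 1.12 in KC_Epo 1 to 3, against 0.33, 0.60 and 0.49 in KC_EV 1 to 3. That of Fnip2 to Fnip1 was 0.48, 0.41 and 0.48 in KC_Epo and 0.15, 0.25 and 0.23 in KC_EV. In both pairs every KC_Epo library lay above every KC_EV library, with differences of 0.58 ± 0.10 and 0.25 ± 0.04 (SE). The ratio of Atp6v0a1 to Tcirg1 differed by 0.37 ± 0.14 and that of Atp6v0d2 to Atp6v0d1 by -1.18 ± 0.32, again without overlap, although KC_Epo 1 was close to the KC_EV libraries in the first. The ratio of Rragd to Rragc, -0.04 ± 0.18 apart, overlapped between groups, and without KC_EV 1 its difference was 0.14. In the two-sided exact permutation test the first 4 ratios reached p = 0.1, the smallest value that 3 against 3 libraries allow (adjusted p = 0.125 over 5 ratios), and the last had p = 1.

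**Figure D4:**
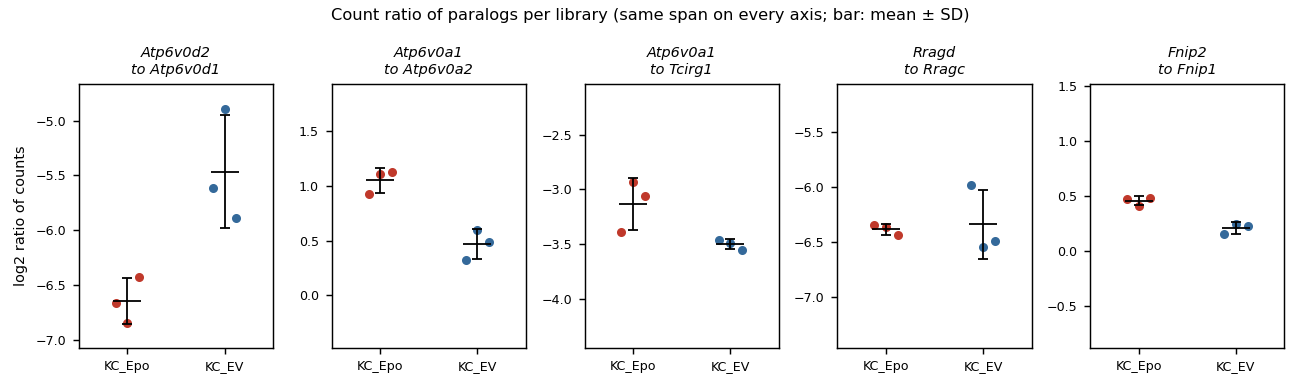
Log2 ratio of the counts of gene pairs in each library (y axis, the same span in every panel), KC_Epo on the left and KC_EV on the right; bars are the mean ± SD. The groups are apart in 4 panels and overlap for Rragd to Rragc, where KC_EV 1 stands above the other libraries.

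Among the Rag GTPases Rragc rose. RagC, with RagA or RagB, forms the pair that binds mTORC1, and it also presents TFEB to the kinase. Rragc had 140, 168 and 152 CPM in KC_Epo 1 to 3, against 109, 97.1 and 97.1 CPM in KC_EV 1 to 3. All KC_Epo libraries were clearly above KC_EV, and the log2 fold change was 0.61 ± 0.08 (SE, quasi-likelihood edgeR adjusted p = 0.000216), kept in all 16 alternative settings at 0.45 to 0.67. Rraga, its partner, had 41.7, 47.9 and 44.0 CPM in KC_Epo 1 to 3 and 47.2, 41.0 and 42.8 CPM in KC_EV 1 to 3, groups that overlapped, with a log2 fold change of 0.03 ± 0.09 (SE) that turned below 0 with library sizes only. The paralogs were scarce. Rragd, a known target of the TFEB family, had 1.70, 2.03 and 1.73 CPM in KC_Epo 1 to 3 and 1.70, 1.02 and 1.06 CPM in KC_EV 1 to 3. KC_Epo 1 and KC_EV 1 were level, and its log2 fold change of 0.53 ± 0.37 (SE, quasi-likelihood edgeR adjusted p = 0.304) is imprecise at this depth. Rragb had 18 counts in KC_Epo and 31 in KC_EV, of which KC_EV 1 alone held 26, and was not tested.

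Ragulator, the anchor of the Rag pair, was not called in any of its 5 subunits by edgeR or DESeq2. By edgeR 32.3% of all genes tested were called, and 2 of the 5 subunits (Lamtor1 and Lamtor3) had an unadjusted p under 0.05. Log2 fold changes lay between 0.05 (Lamtor4) and 0.19 (Lamtor3), all above 0 with TMM factors, and with library sizes only those of Lamtor2, Lamtor4 and Lamtor5 turned below 0. Lamtor1, which ties the complex to the membrane, had 107, 114 and 110 CPM in KC_Epo 1 to 3 and 93.0, 97.7 and 103 CPM in KC_EV 1 to 3, with groups just apart (0.17 ± 0.07 SE, edgeR adjusted p = 0.0781). Lamtor3 was also apart, at 66.0 ± 2.98 CPM in KC_Epo and 57.9 ± 1.36 CPM in KC_EV (SD, n = 3 each; adjusted p = 0.062), and was called without KC_Epo 2, at 0.23. Lamtor2, Lamtor4 and Lamtor5 overlapped between the groups.

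Folliculin and a partner of it rose together. Flcn, the protein that switches RagC and RagD to the state in which they bind mTORC1 and TFEB, had 179, 153 and 159 CPM in KC_Epo 1 to 3, against 105, 121 and 120 CPM in KC_EV 1 to 3. The groups were clearly apart, with a change of 0.51 ± 0.08 on the log2 scale (SE, edgeR adjusted p = 0.000725). Fnip2, which binds folliculin, had 66.7, 62.8 and 66.1 CPM in KC_Epo 1 to 3, against 48.2, 49.0 and 43.3 CPM in KC_EV 1 to 3. Every KC_Epo library stood above every KC_EV library, with a log2 fold difference of 0.48 ± 0.08 (SE, edgeR adjusted p = 0.000685). Both kept the call in all 16 alternative settings, at 0.35 to 0.56 for Flcn and 0.32 to 0.51 for Fnip2. Fnip1, the related partner, had 47.9, 47.2 and 47.2 CPM in KC_Epo 1 to 3 and 43.4, 41.2 and 37.0 CPM in KC_EV 1 to 3. It did not overlap either but missed the threshold (0.23 ± 0.08 SE, edgeR adjusted p = 0.0508), and it was called without KC_EV 1, at 0.28.

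None of the members among the mTORC1 core (Mtor, Rptor and Mlst8), Rheb, the TSC genes and GATOR1 was called by edgeR. Over all genes tested 32.3% were called. By DESeq2 0 of these members were called, and Rptor alone had an unadjusted p under 0.05 by edgeR. Mtor, the kinase, was near level (log2 fold change 0.04 ± 0.10 SE), as was Mlst8, a subunit shared by both mTOR complexes (-0.03 ± 0.13). Mtor had 40.8, 40.1 and 34.8 CPM in KC_Epo 1 to 3 and 41.2, 34.9 and 36.2 CPM in KC_EV 1 to 3, and the groups overlapped. Rptor, which recognises the substrates and the Rag pair, had 32.4, 33.4 and 31.1 CPM in KC_Epo 1 to 3 and 28.3, 28.0 and 28.9 CPM in KC_EV 1 to 3, with no overlap but no call (0.18 ± 0.08 SE, edgeR adjusted p = 0.114). Rheb, Tsc1 and Tsc2 overlapped between groups at 0.13 ± 0.08, -0.04 ± 0.10 and 0.08 ± 0.08. Of GATOR1, Depdc5 was at -0.04 ± 0.10, Nprl3 at 0.06 ± 0.12 and Nprl2 at -0.17 ± 0.10, the last with 25.2 ± 2.18 CPM in KC_Epo and 28.4 ± 1.90 CPM in KC_EV (SD, n = 3 each; edgeR adjusted p = 0.209). With library sizes only Nprl2 was called as lower (-0.33). Slc38a9, the lysosomal transporter that reports arginine to the Rag pair, had 51.1 ± 1.73 CPM in KC_Epo and 44.6 ± 1.92 CPM in KC_EV (SD, n = 3 each). The groups did not overlap, yet the gene missed the threshold (0.20 ± 0.08 SE, edgeR adjusted p = 0.0619) and was called without KC_EV 1, at 0.23. Exons of Bricd5 cover 25.9% of the Mlst8 transcript and those of Mpg cover 25.8% of the Nprl3 transcript, each on the opposite strand. The libraries were stranded, but how reads over both strands were counted is not given in the sources used here, so both values are uncertain.

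Promoter windows from RefSeq (build GRCm38.p6, 250 bases before to 50 after each annotated start) were matched for 35 of the 42 members. Atp6v0a2, Atp6v0d2, Atp6v1b2, Atp6v1c1, Atp6v1g1, Atp6v1h and Lamtor3 were not matched. The letters CACGTG, the core of the CLEAR element and of other E-boxes and the same on both strands, were held by 10 of 38 member windows, 26.3%, against 7.15% of all 32851 windows. The longer TCACGTGA was in 3 member windows (Atp6v0d1, Atp6v1a and Atp6v0e), 7.89%, against 0.974% of all; each such match also counts as CACGTG. The full CLEAR palindrome was in 0 member windows and 0.326% of all. TGACTCA, the AP-1 motif, searched on both strands, was in 0 member windows and 5.2% of all. Of the members past the threshold 8 were matched and 3 held CACGTG (Rragc, Atp6v0b and Atp6v0d1), and of those not called 25 were matched and 6 held it. The windows of Flcn, Fnip2, Atp6v0a1, Atp6v0c and Atp6ap2 held none. The 3 called members with CACGTG and Atp6v1a, which was not called but holds the longer form, are shown from 140 bases before to 10 bases after the start, in lower case with the CACGTG or TCACGTGA match in capitals; a match is a description of these letters and not a shown binding site.
Rragc (chr4:123917293-123917442, + strand): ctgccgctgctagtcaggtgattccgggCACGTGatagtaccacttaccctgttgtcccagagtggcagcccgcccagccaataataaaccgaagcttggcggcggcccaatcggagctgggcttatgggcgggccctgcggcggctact
Atp6v0b (chr4:117887320-117887469, - strand): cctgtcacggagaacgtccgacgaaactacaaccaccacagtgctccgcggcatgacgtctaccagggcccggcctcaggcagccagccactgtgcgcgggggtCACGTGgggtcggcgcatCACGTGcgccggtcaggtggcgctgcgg
Atp6v0d1 (chr8:105566055-105566204, - strand): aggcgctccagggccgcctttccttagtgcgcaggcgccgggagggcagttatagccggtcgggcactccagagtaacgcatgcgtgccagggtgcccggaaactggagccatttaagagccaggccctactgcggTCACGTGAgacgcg
Atp6v1a (chr16:44139250-44139399, - strand): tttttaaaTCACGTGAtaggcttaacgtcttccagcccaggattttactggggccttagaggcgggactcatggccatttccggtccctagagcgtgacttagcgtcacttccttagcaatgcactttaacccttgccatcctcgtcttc
In Atp6v0b the core stands at 36 and again at 18 bases before the start, in Rragc at 112, and in Atp6v0d1 it reaches the start itself. Atp6v1a has it 131 bases before the start and had the smallest change of the 4, while the members with the largest log2 fold changes among those matched, Atp6v0c and Rragc, include one without and one with the letters.

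Genes around this machinery were read from lists of the same pathway. The lists were chosen with earlier results of these data known, so their shares are a description and not independent support. The MiT/TFE factors rose in part: of 6 genes of the family and its partners 4 were higher and 0 lower, 66.7% higher against 16.9% of all genes. With library sizes only 2 were higher and 1 lower, where 1193 of all 13120 genes were higher and 3616 lower. Tfeb had 67.4 ± 1.80 CPM in KC_Epo and 52.6 ± 6.46 CPM in KC_EV (SD, n = 3 each), a change of 0.36 ± 0.09 on the log2 scale (SE, edgeR adjusted p = 0.0104) whose call was lost with library sizes only (0.20), as was that of Ywhaz (0.18 there, against 0.34 ± 0.08), a 14-3-3 protein that binds these factors. Mitf rose by 0.59 ± 0.10 and Tfec, a related factor of macrophages, by 0.52 ± 0.07, while Tfe3 was not called at 0.04 ± 0.07. Of 24 lysosomal genes known as CLEAR targets 18 were higher and 2 lower, 83.3% called against 32.3% of all genes, among them the cathepsins Ctsd at 1.34 ± 0.10 and Ctsb at 1.01 ± 0.10 and the peptidase Tpp1 at 0.67 ± 0.07. The 2 that fell, named after their values were seen, were Gpnmb at -0.97 ± 0.22, a glycoprotein of lipid-laden macrophages, and Cd63 at -0.74 ± 0.12.

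Lysosomal ion channels and transporters rose in 10 of 15 cases, 66.7% against 16.9% of all genes, and fell in 0, against 15.4% of all genes. With library sizes only 7 were higher and 1 lower, where 1193 of all 13120 genes were higher and 3616 lower. Clcn7, the chloride-proton exchanger that balances the charge the pump moves, rose by 0.71 ± 0.07 on the log2 scale (SE, edgeR adjusted p = 1.83e-05), and its partner Ostm1 one of 0.61 ± 0.07. The channel gene Tpcn2 rose by 0.65 ± 0.07. The V-ATPase assembly list holds the RAVE genes, which load V1 onto V0, factors that build V0 in the endoplasmic reticulum, and others. Of its 11 tested genes 2 rose and 2 fell, 18.2% each way and so near the background of 16.9% and 15.4%, and in 8 of 16 alternative settings 1 rose. The related RAVE genes Dmxl1 and Dmxl2 went in opposite directions, at 0.61 ± 0.09 and -0.74 ± 0.11 (SE), both without overlap. Dmxl1 had 82.0 ± 3.97 CPM in KC_Epo and 53.8 ± 6.49 CPM in KC_EV, and Dmxl2 had 20.3 ± 2.32 CPM in KC_Epo and 34.0 ± 2.68 CPM in KC_EV (SD, n = 3 each). Ncoa7, a protein with a TLDc domain, fell by 0.46, and its call was lost without KC_Epo 3 (-0.43) or KC_EV 1 (-0.39). Of 12 genes that set the position of lysosomes 4 rose and 1 fell, 33.3% and 8.33% against 16.9% and 15.4% of all genes. The count was 2 higher and 2 lower with library sizes only, where 1193 of all 13120 genes were higher and 3616 lower. It was 2 higher and 0 lower without KC_Epo 3 or without KC_EV 3. Over all genes, 1477 were higher and 1251 lower of 13435 without KC_Epo 3, and 1617 and 1393 of 13294 without KC_EV 3. Among those that rose were Plekhm2, which links lysosomes to kinesin, at 0.96 ± 0.07 and Plekhm1 at 0.49 ± 0.07. Arl8b, the GTPase that recruits both to lysosomes, was at 0.30 ± 0.08 and lost the call without KC_Epo 3 (0.28) or KC_EV 3 (0.26) and with library sizes only (0.14). The gene that fell, Bloc1s2, was named after its value was seen (-0.37 ± 0.11) and lost its call without KC_Epo 3 (-0.30), KC_EV 1 (-0.31) or KC_EV 3 (-0.37).

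Further regulators of mTORC1 were read in the same way. Of GATOR2, which opposes GATOR1, 1 of 5 genes fell, Wdr59 at -0.85 ± 0.18 (SE, edgeR adjusted p = 0.00678), and 0 rose. The share lower, 20%, was near the 15.4% of all genes, and 16.9% of all genes were higher. Of the 3 KICSTOR genes analysed, which hold GATOR1 at the lysosome, 0 were called by edgeR, where 32.3% of all genes were. Of these 3, 0 had an unadjusted p under 0.05, and 0 were called by DESeq2. Of 7 amino acid sensors 2 fell and 0 rose, 28.6% lower against 15.4% of all genes and 0% higher against 16.9%. The 2 that fell were Gatsl3, now named Castor1, the arginine sensor, at -1.43 ± 0.30, and Sesn3, a sestrin, at -0.65 ± 0.14. Of 10 other genes of the mTOR complexes 3 rose and 1 fell, 30% and 10% against 16.9% and 15.4% of all genes. Those that rose were Akt1s1, an inhibitory subunit of mTORC1, at 0.45 ± 0.10 (0.29 and not called with library sizes only), Deptor, a further inhibitor of mTOR, at 0.46 ± 0.10, and Prr5l, which binds mTORC2, at 0.49 ± 0.10. Rictor, the core of mTORC2, fell by 0.25, a gene named after its value was seen, and its call was lost without KC_Epo 3 (-0.23), KC_EV 2 (-0.21) or KC_EV 3 (-0.28). Of 9 mTORC1 substrates and readouts 2 rose and 0 fell, 22.2% higher and so near the 16.9% of all genes. With upper-quartile factors 0 were higher and 1 lower, where 1724 of all 13120 genes were higher and 2527 lower. With library sizes 0 were higher and 2 lower, where 1193 of all 13120 genes were higher and 3616 lower. Those that rose were Ulk1, the kinase that starts autophagy, at 0.28 ± 0.08 and Lpin1, a lipid phosphatase, at 0.36 ± 0.13. The Ulk1 call was lost without KC_Epo 3 (0.31) and under upper-quartile (0.22) or plain library size scaling (0.12), and that of Lpin1 in 12 of 16 alternative settings. Grb10, an adaptor that mTORC1 phosphorylates, had 12.8, 6.08 and 9.34 CPM in KC_Epo 1 to 3 and 13.4, 16.3 and 16.7 CPM in KC_EV 1 to 3. All KC_Epo libraries lay below KC_EV, KC_Epo 1 by little, and the gene was not called (-0.72 ± 0.24 SE, edgeR adjusted p = 0.0509) but was called as lower in 7 of 16 alternative settings. Messenger RNA does not give the activity of the pump or of the kinase, which was not measured here.

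**Figure D5:**
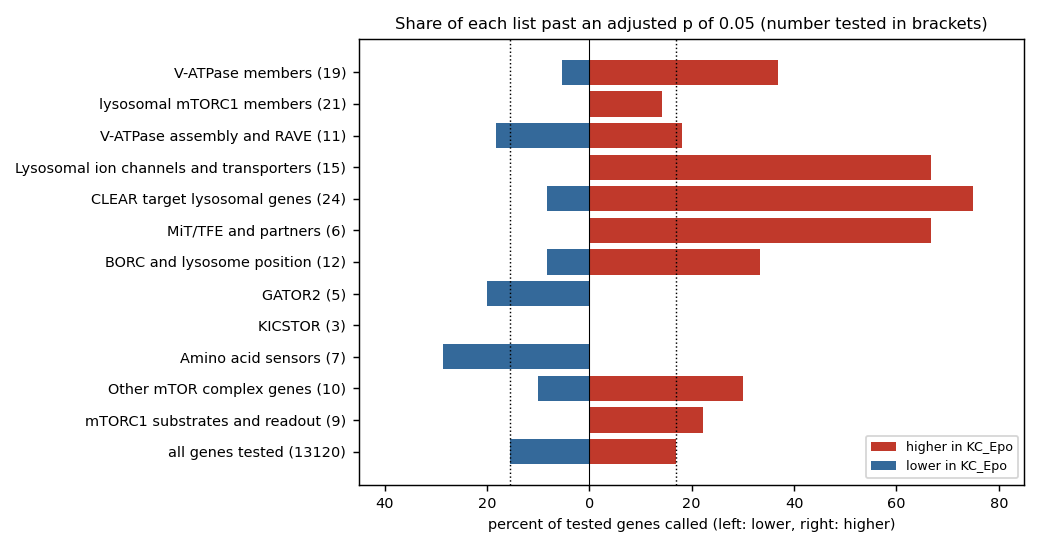
Percent of tested genes past an adjusted p of 0.05 in each list (bars to the right: higher in KC_Epo; to the left: lower in KC_Epo), with the number tested in brackets and dotted lines at the shares over all genes, 16.9% and 15.4%. The CLEAR target list reaches 75% higher and the V-ATPase members 36.8%, while the mTORC1 members, at 14.3%, lie at the dotted line. Members and lists were chosen with earlier results of these data known.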

How the data were processed

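Polyadenylated RNA of sorted Kupffer cells was extracted with RNeasy kits and made into TruSeq stranded libraries, per the labels' protocols. The authors deposited whole-number counts per gene. STAR 2.7.3a and Bowtie2 2.5.1, HTSeq 0.11.2, FastQC 0.11.8 and build GRCm39 are named, without roles, in the submitters' processing notes. From the deposited counts, edgeR 4.0.16 (R 4.3.3; filterByExpr, TMM factors, robust quasi-likelihood test, prior count 0.125 for fold changes) compared KC_Epo with KC_EV over all 13120 genes that passed the filter, with Benjamini-Hochberg adjustment and a threshold of 0.05. Alternatives used DESeq2 1.42.0, limma 3.58.1 (voom), other size factors, other filters and each library left out. Members and lists were chosen with earlier results of these data known. Besides the members, Tcirg1, Rnasek, Tfeb, Tfe3 and Mitf are named in every case, and from each list up to 3 genes, those lowest in adjusted p; genes named outside that rule are marked. Whether libraries came from separate animals is not stated, so p-values cover only the spread among the 6 libraries, which may be technical. Same-numbered libraries did not deviate together (r = -0.148 to -0.0407), so no pairing was used. The labels state no pairing, and a correlation over all genes could miss one that acts on few genes. The SE of an edgeR log2 fold change is its absolute value divided by the square root of the quasi-likelihood F statistic. Paralog ratios used counts plus 0.5, and their SE comes from the variance among libraries in each group. Transcript lengths came from GENCODE vM21 (GRCm38), promoters from RefSeq (GRCm38.p6). The edgeR test was checked on simulated counts without the difference in library composition seen here. DESeq2, limma-voom and the permutation test were not checked in this way.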

Additional observations from a re-analysis of the deposited data

How the results depend on the processing

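Over 16 alternative settings 6 of the 11 called members were called in every one (Atp6v0a1, Atp6v1b2, Atp6v1g1, Rragc, Flcn and Fnip2), 5 lost the call in some, and of 29 not called 12 gained it in some. Of 1279 values of single genes 1189 kept their side of the threshold, 62 lost the call and 28 gained it. Among those that kept their side, 40 changed sign with no call on either side. Besides the members, these genes include those of each list lowest in adjusted p and some named after their values were seen. The counts are thus a description and not independent support. With library sizes only, 1193 genes were higher and 3616 lower, V-ATPase members numbered 4 higher and 3 lower, and 1 mTORC1 member was lower; 24.8% of calls were higher, against 52.4% with TMM and 40.6% with upper-quartile factors. V-ATPase members lower numbered 2 with upper-quartile factors, with no filter, with the 1 CPM filter and with DESeq2, and 0 with limma-voom and with the replicate block. Leaving out each library in turn gave 1477 to 2410 genes higher and 1251 to 2147 lower, the lowest of both without KC_Epo 3, 3 to 12 V-ATPase members higher, 0 to 2 V-ATPase members lower and 3 to 5 mTORC1 members higher. The Rragd to Rragc difference was -0.1469 to 0.1351, the highest value without KC_EV 1. With the replicate number as a block 3358 genes were called, 1800 higher and 1558 lower. The calls of Atp6v0b and Atp6v0d2 were lost there. The labels do not state that libraries of the same number were paired. The cause of these shifts was not tested. At the depth of these libraries Rragb, Atp6v0a4 and Atp6v1b1 were too low for the main test.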
